A study of Mus musculus with 24 samples.

Results

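The genes described here are 10 genes that mark pericytes or act in their signalling: Pdgfb, Pdgfrb, Notch3, Kcnj8, Abcc9, Rgs5, Vtn, Atp13a5, Cspg4 and Anpep. They were taken by name, by a rule that used no measured value, though with earlier results of these data known, from the 17270 genes with normalized counts in mouse brain microvessels, and all 10 were among the 15982 genes that were tested because their mean exceeded 5 normalized counts. A normalized count is the number of reads on a gene divided by a size factor of its library. Microvessels were isolated from male C57BL/6J mice aged 10 to 12 weeks, either 24 h or 7 days after transient middle cerebral artery occlusion (tMCAO) of 60 min or after sham surgery, in which the filament was pulled back at once. The ipsilateral and the contralateral hemisphere were sequenced separately, which gave 8 groups of 3 libraries, 24 in all. Each library held vessels from 3 pooled hemispheres, so that no value belonged to a single mouse, and large tissue fragments had been removed before the vessels were caught on a fine mesh. Pools that were set aside as outliers before deposition were not analysed here. Whether the same-numbered pools of the hemispheres came from the same mice is not stated.

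Pericytes sit on the outer wall of brain capillaries within the basement membrane, where they stabilise the vessel, help to maintain the blood-brain barrier and take part in the control of capillary flow. Endothelial cells release the growth factor encoded by Pdgfb, which keeps pericytes on the vessel through their receptor Pdgfrb. Notch3 receives signals from endothelial ligands in pericytes and smooth muscle cells, and Kcnj8 and Abcc9 encode the pore and the regulatory subunit of a potassium channel that opens when ATP is low.

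Estimated sequencing depth was 13691467 to 20025860 reads on genes per library, and log2 values of libraries within a group correlated with r between 0.967 and 0.988. Every one of the 10 genes was detected in every library, with the lowest value at 415 normalized counts (Anpep). All 12 endothelial markers examined were detected in every library, with a summed level between 266919 and 373405 normalized counts. Some libraries stood apart in mural genes: library 2 of the ipsilateral hemisphere 24 h after tMCAO, its contralateral namesake, library 1 of both hemispheres 7 days after tMCAO and library 3 of both hemispheres 7 days after sham surgery. In the ipsilateral sham group of 24 h, library 1 held the lowest and library 2 the highest value of most of the 10 genes. Calls and directions of log2 fold changes that rest on such a library are given with and without it. Correlations, summed levels and ratios are given with all libraries only. Since whole vessels were sequenced, fewer pericytes and less RNA per pericyte cannot be told apart in any of the values.

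Vtn and Rgs5 had by far the most reads for their length, with 12929 and 12615 normalized counts per kb of annotated exon as the mean of all libraries. Pdgfb followed with 2210, Pdgfrb with 1383, Notch3 with 1059, Atp13a5 with 518, Kcnj8 with 487, Cspg4 with 228, Abcc9 with 223 and Anpep with 181 normalized counts per kb. Exon lengths were taken from GENCODE M21, in which the bounds of Vtn, Pdgfb, Notch3 and Anpep differ from those deposited. Antisense genes lie across Pdgfb, Abcc9 and Notch3 in this annotation, and the strand setting of the counting is not given, so that reads of these 3 genes may include some of their partners. Genes on the same strand also overlap Atp13a5 (a processed pseudogene), Anpep and Pdgfb (a microRNA), where strand cannot separate the reads.

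Post-stroke, 3 pericyte genes were lower in ipsilateral microvessels at 24 h than after sham surgery: Rgs5, Vtn and Atp13a5. By limma with Benjamini-Hochberg adjustment over all genes tested, these 3 of 10 genes were called lower and 0 were called higher, where 8.23% of all genes were called lower and 10% higher. The median log2 fold change of the 10 genes was -0.40, that of all genes -0.02. A gene was called where the adjusted p was below 0.05 and the change exceeded 1.5-fold in either direction. Before adjustment, 3 of the 10 genes had a p under 0.05 at 24 h (42.1% of all genes) and 4 at 7 days (29.3%). At 7 days, Vtn and Atp13a5 were called lower and 0 genes were called higher, where 9.95% of all genes were called lower and 3.27% higher, with medians of -0.41 for the 10 genes and 0.02 for all genes.

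**Figure D1:**
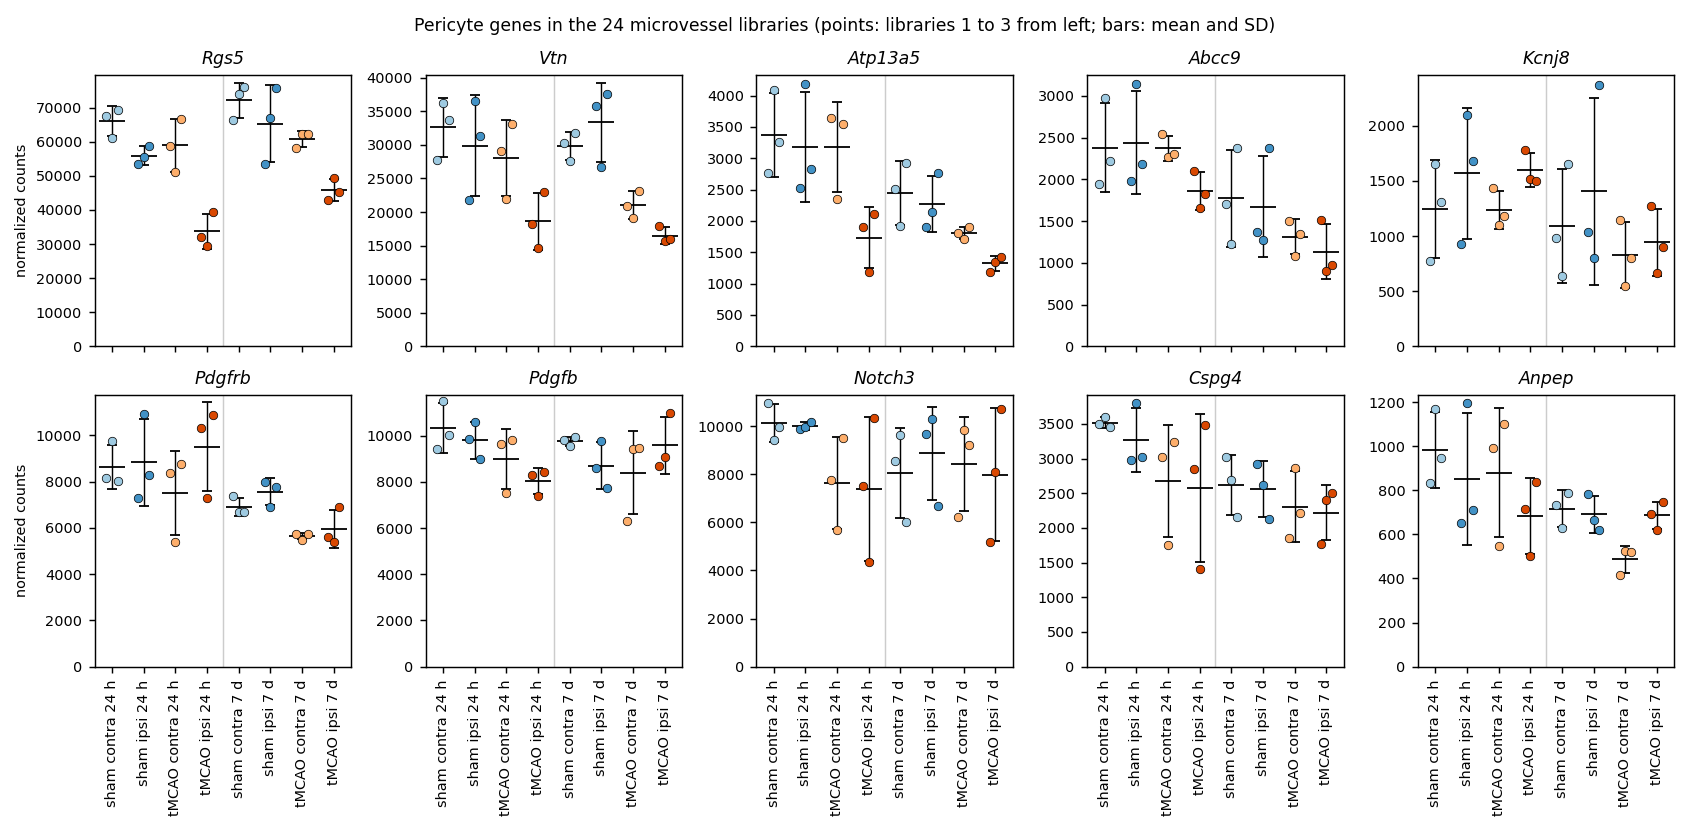
Normalized counts (linear axis from 0) of the 10 pericyte genes in each library of the 8 groups, with libraries 1 to 3 from left to right and the mean and SD of each group as bars. The 3 ipsilateral libraries 24 h after tMCAO hold the lowest Rgs5 values, from 29464 to 39499, while Pdgfrb and Kcnj8 overlap with sham in the same libraries.

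Rgs5, which encodes a regulator that shortens G protein signalling and is among the most abundant pericyte transcripts, lies on chromosome 1 (mm10, chr1:169655501-169695813). Ipsilateral libraries measured 53366, 55625 and 58866 normalized counts 24 h after sham surgery and 32086, 29464 and 39499 after tMCAO. The contralateral hemisphere of the tMCAO-operated mice measured 58822, 51141 and 66757, and that of the sham-operated mice 67576, 61045 and 69370. All 3 ipsilateral tMCAO libraries lay below each of the 18 libraries outside the ischemic hemisphere, the lowest of which measured 51141. The level was 60.2% of sham, a log2 fold change of -0.74 (SE 0.16, adjusted p = 0.0024). This call held without any single library, with log2 fold changes between -0.86 and -0.65. The share of all genes that likewise lay below all 18 libraries was not counted at either time.

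At 7 days, ipsilateral Rgs5 measured 53351, 66958 and 75658 normalized counts after sham surgery and 43041, 49349 and 45318 after tMCAO. These groups did not overlap, and the tMCAO libraries again lay below each of the 18 libraries outside the ischemic hemisphere. They lay above the tMCAO libraries of 24 h without overlap. The log2 fold change of -0.50 against sham (SE 0.16, adjusted p = 0.0426) passed the test and not the limit on the fold change, so that Rgs5 was not called at 7 days. Without sham library 1 the value was -0.64 and Rgs5 was called.

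Vtn encodes vitronectin, a secreted glycoprotein that binds integrins, and lies on chromosome 11 (chr11:78499120-78502324). Ipsilateral levels at 24 h were 21751, 36542 and 31313 normalized counts after sham surgery and 18260, 14611 and 23034 after tMCAO. The groups overlapped, since sham library 1 lay below tMCAO library 3. The log2 fold change was -0.67 (SE 0.20, adjusted p = 0.0176). The call was lost without sham library 2 (-0.51), sham library 3 (-0.62) or tMCAO library 2 (-0.51), and also when only the compared groups were fitted. At 7 days, sham measured 35827, 26684 and 37626 and tMCAO 17901, 15689 and 15920 normalized counts, with no overlap and with every tMCAO library below the 18 libraries outside the ischemic hemisphere. Vtn then stood at 49.4% of sham, with a log2 fold change of -1.0 (SE 0.20, adjusted p = 0.0016), and between -1.16 and -0.91 when single libraries were left out, all of them called.

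Atp13a5, which encodes a membrane ATPase found in brain pericytes, lies on chromosome 16 (chr16:29231851-29378732). It measured 2530, 4186 and 2827 normalized counts in ipsilateral sham libraries at 24 h and 1908, 1186 and 2106 after tMCAO, without overlap. The log2 fold change was -0.88 (SE 0.23, adjusted p = 0.0070). Without tMCAO library 2 it was -0.63 and the call was lost. At 7 days, sham measured 1901, 2139 and 2764 and tMCAO 1193, 1352 and 1424 normalized counts, again without overlap. The log2 fold change of -0.76 (SE 0.23, adjusted p = 0.0253) was called, but not without sham library 2 (-0.80), sham library 3 (-0.61) or tMCAO library 1 (-0.69). Rgs5, Vtn and Atp13a5 were the 3 of 10 genes below sham without overlap at 7 days. Of all genes, 16.6% lay lower and 13.4% higher without overlap in that comparison.

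The sequences before the starts of these 3 genes are shown because they were the genes called lower than sham at 24 h. They come from RefSeq (GRCm38.p6), cover the 250 bases before the start and are written 5′ to 3′ on the strand of the gene. Of the 10 genes, 8 had an entry, and Pdgfb and Pdgfrb had none. Capitals mark matches on either strand to any of 5 motifs that were searched. The core bound by the Notch partner RBPJ was searched as TGGGAA. For the core of hypoxia response elements the letters were ACGTG. The forkhead core was taken as TGTTTAC. The GC box was read as GGGCGG, and the TATA box was searched as TATAAA.
Rgs5 (chr1:169655251-169655500, + strand): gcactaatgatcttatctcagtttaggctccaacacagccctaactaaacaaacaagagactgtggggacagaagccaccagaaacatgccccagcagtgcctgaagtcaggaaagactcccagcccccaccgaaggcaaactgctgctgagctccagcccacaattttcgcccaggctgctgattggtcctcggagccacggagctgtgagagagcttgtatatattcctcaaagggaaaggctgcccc
Vtn (chr11:78498870-78499119, + strand): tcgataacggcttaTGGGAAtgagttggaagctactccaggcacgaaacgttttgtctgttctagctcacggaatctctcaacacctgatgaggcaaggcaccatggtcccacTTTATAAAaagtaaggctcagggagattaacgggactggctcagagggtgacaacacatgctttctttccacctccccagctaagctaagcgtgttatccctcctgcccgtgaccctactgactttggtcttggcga
Atp13a5 (chr16:29378733-29378982, - strand): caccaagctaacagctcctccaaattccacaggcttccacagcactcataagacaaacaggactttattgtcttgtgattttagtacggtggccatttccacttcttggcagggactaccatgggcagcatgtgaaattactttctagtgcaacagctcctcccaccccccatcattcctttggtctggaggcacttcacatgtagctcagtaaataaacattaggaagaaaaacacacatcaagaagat

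Neither the Rgs5 nor the Atp13a5 window held any of these 5 motifs. The Vtn window held 1 RBPJ core, 236 to 231 bases before the start, and a TATA box on each strand in overlapping positions between 137 and 130 bases before the start. Among 27025 promoter windows of the same length, the RBPJ core was found in 21.5%, the hypoxia response core in 16.6%, the forkhead core in 3.09%, the GC box in 32.9% and the TATA box in 13%. GC content was 53.6% for Rgs5, 50.4% for Vtn and 44.8% for Atp13a5, with a median of 52.0% over all windows.

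The receptor and its ligand were not called in the comparisons with sham. Pdgfrb, the receptor tyrosine kinase on pericytes, measured 7317, 10949 and 8284 normalized counts in ipsilateral sham libraries at 24 h and 10345, 7311 and 10890 after tMCAO. The groups overlapped over almost their whole range, and the log2 fold change was 0.10 with a 95% interval from -0.27 to 0.48, turning to -0.02 without sham library 1 and close to 0 without tMCAO library 3. At 7 days, the values were 8005, 6901 and 7774 after sham surgery and 5597, 5376 and 6915 after tMCAO, with a log2 fold change of -0.35 (SE 0.18, adjusted p = 0.201).

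Pdgfb measured 9839, 10596 and 8980 normalized counts in ipsilateral sham libraries at 24 h and 8282, 7378 and 8412 after tMCAO. Although these libraries did not overlap, the log2 fold change of -0.29 (SE 0.15, adjusted p = 0.147) was not called, and 24.1% of all genes lay lower and 25% higher without overlap in this comparison. At 7 days, Pdgfb measured 8603, 9763 and 7749 after sham surgery and 8687, 9067 and 10986 after tMCAO, with a log2 fold change of 0.14 (95% interval -0.17 to 0.45) that turned to -0.06 when libraries were centred on endothelial genes. The difference between the effects at 7 days and 24 h was 0.43 for Pdgfb (SE 0.21, adjusted p = 0.205) and -0.45 for Pdgfrb (SE 0.25, adjusted p = 0.265).

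Rgs5 and Pdgfrb took different courses in the same libraries. The ratio of their normalized counts does not depend on how a library is scaled. It was 3.10 to 4.03 in the 3 ipsilateral libraries 24 h after tMCAO and 5.08 to 11.4 in the libraries of the other 7 groups, with no overlap. In ipsilateral libraries it was 5.08 to 7.29 at 24 h and 6.66 to 9.73 at 7 days after sham surgery, and 6.55 to 9.18 at 7 days after tMCAO. The ratio was chosen after its values were seen and was not tested.

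Kcnj8, the pore of the potassium channel, and Abcc9, its regulatory subunit, are neighbours on the minus strand of chromosome 6 (chr6:142564837-142571614 and chr6:142587862-142702315), 16.2 kb apart with 0 annotated genes between them. Kcnj8 measured 927, 2094 and 1682 normalized counts in ipsilateral sham libraries at 24 h and 1778, 1517 and 1502 after tMCAO. Abcc9 measured 1984, 3138 and 2183 in the same sham libraries and 2101, 1659 and 1825 after tMCAO. Both genes overlapped between sham and tMCAO, with log2 fold changes of 0.10 for Kcnj8 (95% interval -0.74 to 0.94) and -0.36 for Abcc9 (-0.90 to 0.17). The Kcnj8 value turned to -0.24 without sham library 1.

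At 7 days, Kcnj8 measured 1039, 804 and 2373 normalized counts after sham surgery and 1270, 661 and 897 after tMCAO, and Abcc9 1372, 1278 and 2373 against 1513, 907 and 976. Sham library 3 held the highest value of both genes. The log2 fold changes were -0.47 for Kcnj8 (SE 0.40, adjusted p = 0.491) and -0.54 for Abcc9 (SE 0.26, adjusted p = 0.161), and without sham library 3 they were -0.01 and -0.26. Over the 18 libraries outside the ischemic hemisphere, Kcnj8 had the highest coefficient of variation of the 10 genes, 40.8%, and Rgs5 the lowest, 12.1%.

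Kcnj8 and Abcc9 followed each other from library to library, and for that reason their promoter windows are shown in the same form as those above. The RefSeq start of Abcc9 lies within the deposited bounds of the gene, so that its window reaches into them and its distances count from the RefSeq start.
Kcnj8 (chr6:142571615-142571864, - strand): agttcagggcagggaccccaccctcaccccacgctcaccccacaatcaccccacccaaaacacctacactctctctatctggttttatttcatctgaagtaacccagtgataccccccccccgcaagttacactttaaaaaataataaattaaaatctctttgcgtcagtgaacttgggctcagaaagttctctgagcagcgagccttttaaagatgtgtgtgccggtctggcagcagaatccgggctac
Abcc9 (chr6:142702275-142702524, - strand): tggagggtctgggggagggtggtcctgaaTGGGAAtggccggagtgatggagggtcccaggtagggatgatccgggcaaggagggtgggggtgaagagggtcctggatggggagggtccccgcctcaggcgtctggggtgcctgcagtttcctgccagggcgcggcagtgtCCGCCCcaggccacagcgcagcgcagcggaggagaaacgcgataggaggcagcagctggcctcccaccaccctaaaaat

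The Kcnj8 window held none of the 5 motifs and a GC content of 49.2%. The Abcc9 window held 1 RBPJ core, 221 to 216 bases before the start, and 1 GC box on the opposite strand, 79 to 74 bases before it, with a GC content of 66.8%. The ratio of Kcnj8 to Abcc9 normalized counts was 0.823 to 0.914 in ipsilateral libraries 24 h after tMCAO, above 0.467 to 0.770 in sham and 0.483 to 0.564 in the contralateral hemisphere of the same surgery. At 7 days it was 0.729 to 0.919 after tMCAO and 0.629 to 1 after sham surgery, which overlapped. This ratio, too, was looked at after the values were seen.

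Notch3, the receptor on mural cells, and Cspg4, a proteoglycan on pericytes, smooth muscle cells and oligodendrocyte precursors, varied widely within the tMCAO groups. Ipsilateral Notch3 at 24 h measured 9869, 9976 and 10175 normalized counts after sham surgery and 7529, 4353 and 10333 after tMCAO. Cspg4 measured 2986, 3799 and 3025 after sham surgery and 2850, 1403 and 3488 after tMCAO. Library 2 was the lowest and library 3 the highest of the tMCAO libraries for both genes. Log2 fold changes were -0.52 for Notch3 (SE 0.29, adjusted p = 0.178) and -0.43 for Cspg4 (SE 0.27, adjusted p = 0.229), and without tMCAO library 2 they were -0.18 and -0.04. Notch3 reached -0.81 and was called without tMCAO library 3.

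At 7 days, ipsilateral Notch3 measured 9673, 10283 and 6680 normalized counts after sham surgery and 5180, 8090 and 10699 after tMCAO, and its log2 fold change of -0.19 (SE 0.29, adjusted p = 0.726) turned to 0.09 without tMCAO library 1. Cspg4 measured 2124 to 2928 after sham surgery and 1761 to 2502 after tMCAO (log2 fold change -0.21, SE 0.27, adjusted p = 0.670). Anpep, an aminopeptidase on the surface of pericytes and fibroblasts, measured 652 to 1194 after sham surgery and 500 to 837 after tMCAO at 24 h (log2 fold change -0.29, SE 0.24, adjusted p = 0.372). At 7 days the Anpep groups, 621 to 784 and 621 to 745, were almost congruent, with a log2 fold change of -0.01 and a 95% interval from -0.51 to 0.50.

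**Figure D2:**
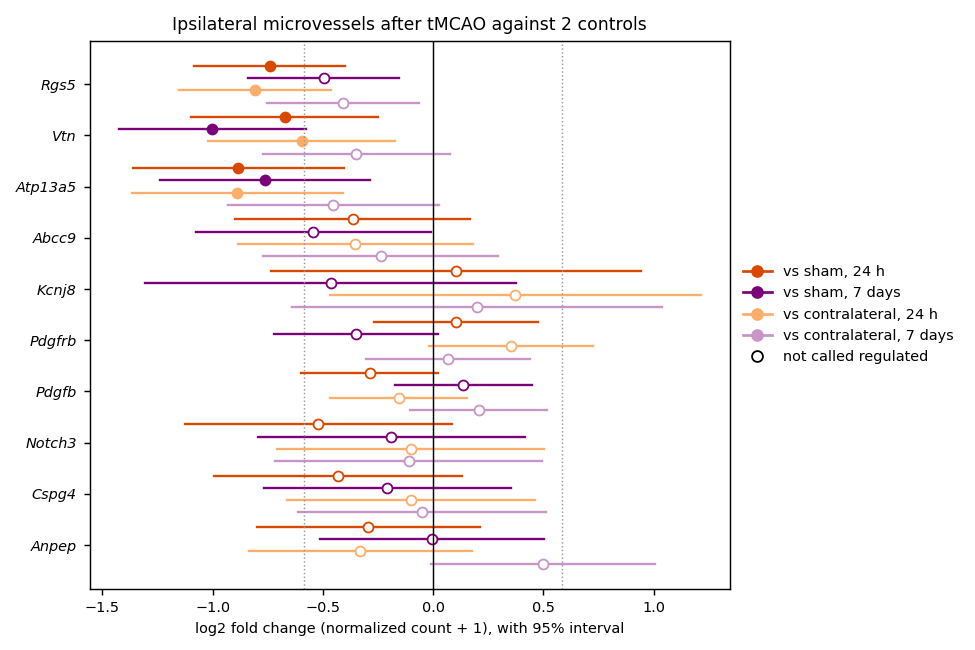
Log2 fold changes (normalized count + 1) with 95% intervals of the 10 pericyte genes in ipsilateral microvessels after tMCAO, against ipsilateral sham libraries and against the contralateral hemisphere, at 24 h and 7 days. Filled points were called regulated, dotted lines mark a 1.5-fold change in either direction, and all filled points belong to Rgs5, Vtn or Atp13a5 and lie below 0.

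Against the contralateral hemisphere of the same surgery, the same 3 genes were called lower at 24 h and 0 were called higher, where 5.14% of all genes were called lower and 8.51% higher. The same 3 had an unadjusted p under 0.05 (37.2% of all genes). Rgs5 differed by -0.81 (SE 0.16, adjusted p = 0.0014), Atp13a5 by -0.89 (SE 0.23, adjusted p = 0.0078) and Vtn by -0.60 (SE 0.20, adjusted p = 0.0378) on the log2 scale. Without ipsilateral library 2, only Rgs5 was called and Atp13a5 stood at -0.64 and Vtn at -0.43. The Vtn call was also lost without ipsilateral library 1 (-0.59), contralateral library 1 (-0.56) or contralateral library 3 (-0.47), when libraries were centred on endothelial genes (-0.54, adjusted p = 0.116) and when only the compared groups were fitted (adjusted p = 0.0932). Pdgfrb and Kcnj8 differed by 0.35 (95% interval -0.02 to 0.72) and 0.37 (-0.47 to 1.21), and the Kcnj8 libraries did not overlap, where 21.7% of all genes lay higher without overlap. Rgs5, Atp13a5 and Abcc9 lay lower without overlap, where 19.1% of all genes did so. Both comparisons at 24 h share the ipsilateral tMCAO libraries.

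At 7 days, 0 of the 10 genes were called between the hemispheres by limma, where 13% of all genes were called, 3.03% higher and 9.98% lower, and Rgs5 alone had an unadjusted p under 0.05 (26.9% of all genes). Ipsilateral Rgs5, Vtn and Atp13a5 lay below the contralateral libraries without overlap, as 14.6% of all genes did, with log2 differences of -0.41 (SE 0.16, adjusted p = 0.104), -0.35 (SE 0.20, adjusted p = 0.296) and -0.45 (SE 0.23, adjusted p = 0.214). Anpep lay above the contralateral libraries without overlap, by 0.50 (SE 0.24, adjusted p = 0.194), and 10.7% of all genes did so. In either direction, 4 of the 10 genes and 25.3% of all genes did not overlap.

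The contralateral hemisphere of tMCAO-operated mice differed from that of sham-operated mice in a direction shared by most of the genes at both times, without any call. At 24 h, 8 of the 10 log2 fold changes were below 0 (median -0.21), and at 7 days 9 were (median -0.32). The median of all genes was 0.01 at both times. At 7 days, Pdgfb, Pdgfrb, Rgs5, Vtn, Atp13a5 and Anpep lay below sham without overlap, 6 of 10 genes, where 4.76% of all genes did so. Contralateral Vtn measured 30243, 27584 and 31704 normalized counts after sham surgery and 20970, 19082 and 23121 after tMCAO. Its log2 fold change was -0.51 (SE 0.20, adjusted p = 0.409), and that of Anpep was -0.56 (SE 0.24, adjusted p = 0.443). The 9 fibroblast markers had a median of -0.62 in the same comparison, 0 of them called by limma, and their summed level was 6358 to 9704 normalized counts against 10177 to 14316 after sham surgery, without overlap. Their part in these differences was not tested. By limma 0 of 10 pericyte genes were called, 2 had an unadjusted p under 0.05 (10.3% of all genes), and 0.0313% of all genes were called. At 24 h, 0 were called by limma and 0 had an unadjusted p under 0.05 (2.53% of all genes), and Cspg4 alone lay below sham without overlap, where 4.24% of all genes did so.

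Some pericyte genes differed between the time points, which were separate sets of pools. In ipsilateral microvessels, 2 genes were lower 7 days after tMCAO than 24 h after it, Pdgfrb by a log2 difference of -0.66 (SE 0.18, adjusted p = 0.0136) and Abcc9 by -0.75 (SE 0.26, adjusted p = 0.0450), where 8.44% of all genes were called lower and 3.72% higher. Neither gene overlapped between the time points. Kcnj8 differed by -0.81 (SE 0.40, adjusted p = 0.168) and Rgs5 by 0.46 (SE 0.16, adjusted p = 0.0578), also without overlap. Kcnj8 was called when only the compared groups were fitted (adjusted p = 0.0433). Pdgfb lay higher without overlap as well, so that 5 of the 10 genes did not overlap (34.2% of all genes), 3 of them lower (19.9%). Centring the libraries on their medians moved the median of all genes by 0.11 in this comparison and left both genes uncalled. Pdgfrb at -0.56 (adjusted p = 0.0305) then passed the limma test and not the limit on the fold change. Abcc9 at -0.64 (adjusted p = 0.0747) did not pass the test. The count fell to 0 without library 1 or 3 of 24 h or library 2 of 7 days, which left Pdgfrb at -0.59, -0.55 and -0.59, and to 1 (Pdgfrb) without library 2 of 24 h or library 3 of 7 days.

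In the contralateral hemisphere of tMCAO-operated mice, the same time comparison gave 0 calls by limma among the 10 genes and among all genes, while 4 of the 10 had an unadjusted p under 0.05 (16.5% of all genes). These were Abcc9 at -0.86 (SE 0.26, adjusted p = 0.141), Anpep at -0.80 (SE 0.24, adjusted p = 0.145), Atp13a5 at -0.79 and Pdgfrb at -0.38. Of the 10 log2 differences there, 8 were below 0 (median -0.39, that of all genes 0.0006). Without overlap, 3 genes lay lower at 7 days, as 7.77% of all genes did. In sham-operated mice, 0 of 10 genes were called by limma between the time points in either hemisphere, where 0.476% of all genes were called ipsilaterally and 0.332% contralaterally. Ipsilateral Abcc9 alone had an unadjusted p under 0.05 (14.1% of all genes), with a log2 difference of -0.57 (SE 0.26, adjusted p = 0.319), and contralaterally 0 of the 10 had (10.8% of all genes). In sham libraries, 8 of the 10 differences were below 0 ipsilaterally (median -0.22) and 9 contralaterally (median -0.33). Ipsilaterally 1 gene lay lower at 7 days without overlap (10.1% of all genes) and contralaterally 3 did (8.63%). In ipsilateral microvessels after tMCAO, 6 of the 10 differences were below 0 (median -0.14). Between the hemispheres of sham-operated mice, 0 of 10 genes were called by limma and 0 had an unadjusted p under 0.05 at either time, where 2.3% of all genes had such a p at 24 h and 2.25% at 7 days. Rgs5 alone lay lower in the ipsilateral sham hemisphere at 24 h without overlap, where 6.1% of all genes did so and 5.36% lay higher.

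The difference between the tMCAO effects at 7 days and at 24 h was not called for any of the 10 genes by limma, and 0 had an unadjusted p under 0.05, where 8.12% of all genes were called, 2.43% higher and 5.68% lower, and 26% had such a p. For Kcnj8 it was -0.57 (SE 0.57, adjusted p = 0.562). A gene called at 24 h and not at 7 days, such as Rgs5, was thus not shown to differ in its response between the times.

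Across all 8 groups, the order of the mean levels was sharp for few genes. For Rgs5 it ran from 72113 ± 5163 normalized counts (SD, n = 3) in the contralateral sham group of 7 days down to 55952 ± 2765 in the ipsilateral sham group of 24 h, with each neighbour overlapping the next, and then without overlap to 45903 ± 3194 and 33683 ± 5205 in the ipsilateral tMCAO groups of 7 days and 24 h. For Pdgfrb the ipsilateral tMCAO group of 24 h was the highest, 9515 ± 1928, and the contralateral tMCAO group of 7 days the lowest, 5660 ± 140. Neighbouring groups overlapped in 6 of 7 steps for Pdgfrb and Abcc9 and in all 7 steps for the other 7 genes.

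The 10 genes did not move as a single block over the 24 libraries. Correlations of their log2 values, given here as a description over libraries that share groups and normalization, had a median r of 0.44 over the 45 pairs and ranged from -0.33 to 0.86. Cspg4 and Notch3 were most alike (r = 0.86), followed by Vtn and Atp13a5 (0.84), while 5 pairs were below 0. After group means were subtracted, Kcnj8 and Abcc9 reached r = 0.93, Pdgfrb and Anpep 0.89 and Cspg4 and Notch3 0.88, whereas Notch3 ran against Kcnj8 (-0.51) and Abcc9 (-0.52).

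**Figure D3:**
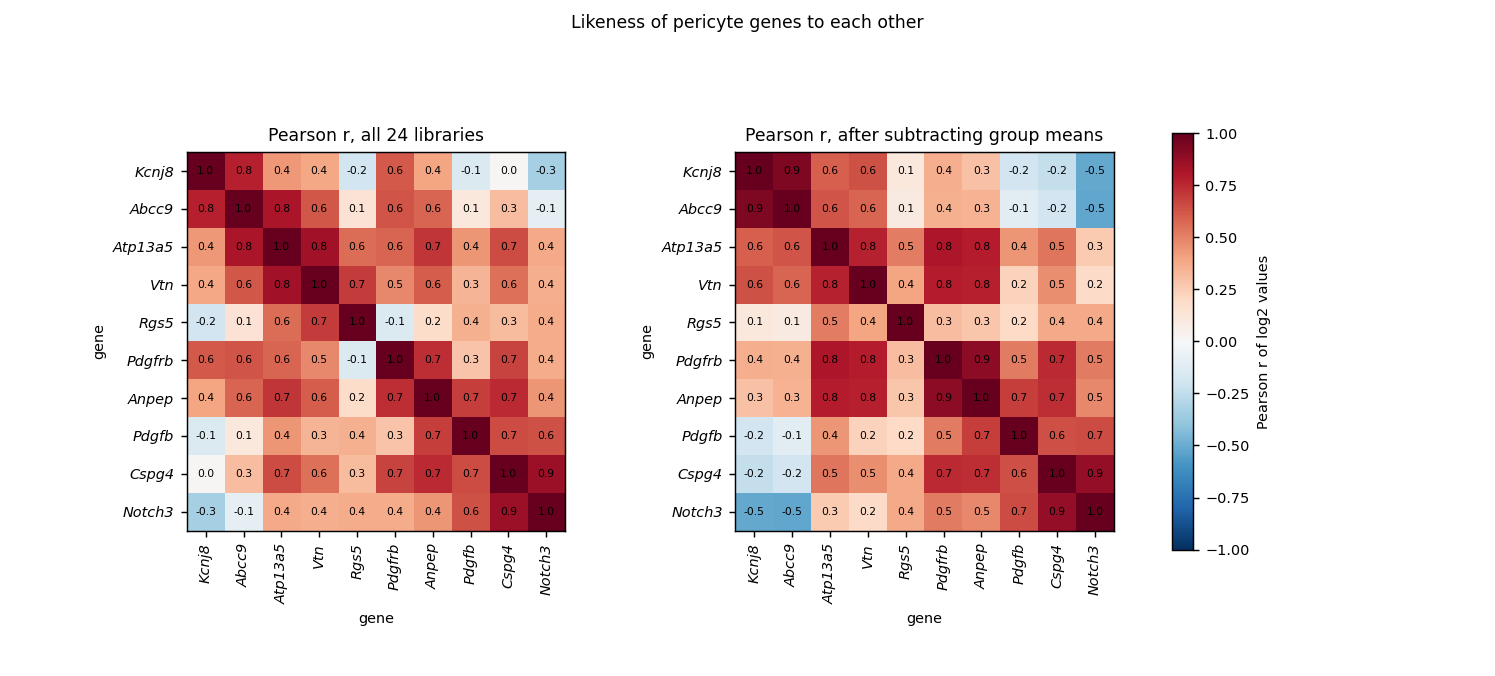
Pearson r of log2 values for each pair of the 10 pericyte genes, over all 24 libraries (left) and after the mean of each group was subtracted (right), from -1 (blue) to 1 (red). Kcnj8 and Abcc9 form a pair that runs against Notch3 within groups (-0.51 and -0.52), and Notch3 pairs with Cspg4 (0.88).

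Smooth muscle markers moved with Notch3. The mean log2 level of 10 smooth muscle genes correlated with Notch3 at r = 0.91 over the libraries and 0.94 within groups, and with Cspg4 at 0.73 and 0.82, but with Kcnj8 at -0.38 and -0.50 and with Abcc9 at -0.16 and -0.51. The summed smooth muscle level in ipsilateral libraries was 84140 to 89005 normalized counts 24 h after sham surgery and 39634 to 93165 after tMCAO, with the lowest value in library 2. At 7 days it was 70853 to 106488 after sham surgery and 49187 to 89648 after tMCAO. Of the 10 smooth muscle genes, 1 was called lower at each time, Myl9 at 24 h and Actg2 at 7 days. Myl9 and Actg2 were picked with their values in view. The part of smooth muscle markers in the Notch3 and Cspg4 values was not tested. Of 10 markers of oligodendrocyte precursors, the other cells that carry Cspg4, 1 was called higher and 4 lower at 24 h and 1 higher and 7 lower at 7 days. Their summed level was 961 to 1181 normalized counts in ipsilateral sham libraries and 1126 to 1281 after tMCAO at 24 h, and 1108 to 1806 against 559 to 725 at 7 days. Their mean log2 level at 24 h was 6.11 in ipsilateral sham libraries and 5.49 after tMCAO, unlike the sums. Against the contralateral hemisphere, 1 was called higher and 0 lower at 24 h, and 0 higher and 6 lower at 7 days.

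**Figure D4:**
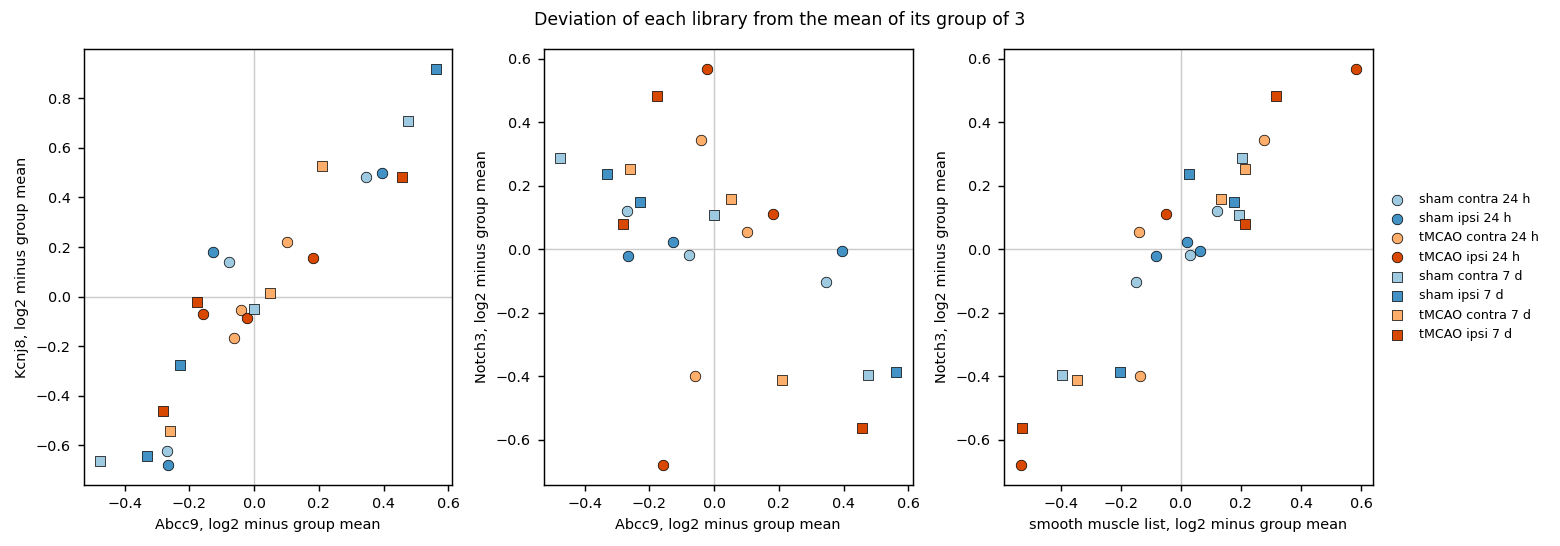
Deviation of each library from the mean of its group of 3 on the log2 scale, for Kcnj8 against Abcc9, Notch3 against Abcc9 and Notch3 against the mean of 10 smooth muscle genes, with circles for 24 h and squares for 7 days. Kcnj8 rises with Abcc9 (r = 0.93) and Notch3 with the smooth muscle genes (0.94), while Notch3 falls as Abcc9 rises (-0.52).

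Markers of other cells changed with tMCAO in the same libraries. Summed over 8 neutrophil and monocyte genes, ipsilateral levels at 24 h were 635 to 2241 normalized counts after sham surgery and 5917 to 9223 after tMCAO, and 7 of the 8 were called higher. At 7 days they were 554 to 4382 and 1527 to 10232, and 2 were called higher. Within groups this list ran with Kcnj8 (r = 0.77) and Abcc9 (0.78) and against Notch3 (-0.70). Over all libraries it ran against Rgs5 (-0.73), though within groups the correlation with Rgs5 was 0.07. Its part in these values was not tested.

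Of 9 fibroblast genes, 1 was called lower at 24 h (Slc6a13) and 3 at 7 days (Slc6a13, Lum and Dcn). The summed fibroblast level was 10665 to 19086 normalized counts in ipsilateral sham libraries and 8515 to 16792 after tMCAO at 24 h, and 11375 to 19104 against 7757 to 7838 at 7 days. The list correlated with Anpep (r = 0.79), Cspg4 (0.77), Vtn (0.77) and Pdgfrb (0.75) over the libraries. Of 12 endothelial genes, 1 was called higher (Emcn) and 1 lower (Slco1a4) at 24 h and 1 higher (Egfl7) at 7 days, with summed levels of 284375 to 325142 after sham surgery and 266919 to 313052 after tMCAO at 24 h, and 286934 to 329571 against 298381 to 373405 at 7 days. The fibroblast and endothelial genes named here were chosen after their values were seen.

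Several neuronal and astrocyte markers were lower after tMCAO than in ipsilateral sham libraries. The 8 neuronal genes summed to 4943 to 5133 normalized counts in ipsilateral sham libraries and 1742 to 2518 after tMCAO at 24 h, with 5 called lower. At 7 days they summed to 3739 to 6855 and 481 to 868, with all 8 called lower. Against the contralateral hemisphere, 2 of the 8 neuronal genes were called lower at 24 h and all 8 at 7 days. The 8 astrocyte genes summed to 17188 to 26159 and 11257 to 17528 at 24 h, with 4 called lower, and to 15637 to 32813 and 10303 to 13939 at 7 days, with 2 called lower. Contralateral sham libraries of 24 h summed to 13630 to 15882, within the range of the ipsilateral tMCAO libraries. Between the hemispheres after tMCAO, 2 of the 8 astrocyte genes were called lower at 24 h (median -0.22) and 3 at 7 days (median -0.93). Over the libraries the neuronal list correlated with Vtn (r = 0.52) and Rgs5 (0.51), and within groups with neither (-0.18 and -0.03). What these markers contribute to the pericyte genes was not tested.

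Of 5 choroid plexus genes, 0 were called against sham at 24 h by limma and 3 were called lower at 7 days (Ttr, Folr1 and Kcnj13, picked with their values in view), with a median of -3.13. Their summed level varied widely, from 5095 to 74083 normalized counts in ipsilateral sham libraries and 7855 to 20597 after tMCAO at 24 h. The sham extremes were library 1 and library 2. At 7 days it was 15763 to 28947 after sham surgery and 649 to 3112 after tMCAO, without overlap, and 3 of the 5 were also called lower 7 days after tMCAO than 24 h after it. Of 6 proliferation genes, 4 were tested, of which 0 were called at 24 h and all 4 were called higher at 7 days, with summed levels of 57 to 66 after sham surgery and 279 to 349 after tMCAO. The part of either list in the pericyte values was not tested.

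Of 38 further genes known from mural cells, 14 were called lower and 1 higher than sham at 24 h, with a median log2 fold change of -0.44. Against the contralateral hemisphere at 24 h, 9 were called lower and 2 higher, with a median of -0.30. Slc6a20a, a transporter of proline, fell by 1.23 (SE 0.28, adjusted p = 0.0030), Lamc3, a laminin chain of the basement membrane, fell by 1.1 (SE 0.27, adjusted p = 0.0037) and Ecm2, a matrix protein, fell by 0.91 (SE 0.25, adjusted p = 0.0102) on the log2 scale. Ifitm1, an interferon-induced membrane protein, rose by 1.6 (SE 0.46, adjusted p = 0.0130). The count of 15 called genes was 6 without tMCAO library 2, without which Ecm2 (-0.71) was not called, and 9 without tMCAO library 1 or sham library 2. Ifitm1 (1.23) was not called without sham library 1.

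At 7 days, 7 of the 38 mural genes were called lower than sham and 0 higher, with a median of -0.22. Against the contralateral hemisphere at 7 days, only 1 of the 38 was called lower and 0 higher, with a median of -0.08. Slc6a20a fell by 1.03 (SE 0.28, adjusted p = 0.0153), and the transcription factor Zic1 (SE 0.20, adjusted p = 0.0046) and the ADP-ribosyltransferase Art3 (SE 0.23, adjusted p = 0.0128) both fell by 0.85 on the log2 scale. The count was 2 without tMCAO library 1, 4 without sham library 1, 4 without sham library 3 and 4 when only the compared groups were fitted. The Slc6a20a call was lost without sham library 1 (-0.89) or tMCAO library 2 (-0.89), and the Art3 call without sham library 3 (-0.65) or tMCAO library 1 (-0.80). The summed level of the 38 genes was 69937 to 88154 normalized counts in ipsilateral sham libraries and 54422 to 77697 after tMCAO at 24 h, and 66886 to 71152 against 56884 to 64189 at 7 days.

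**Figure D5:**
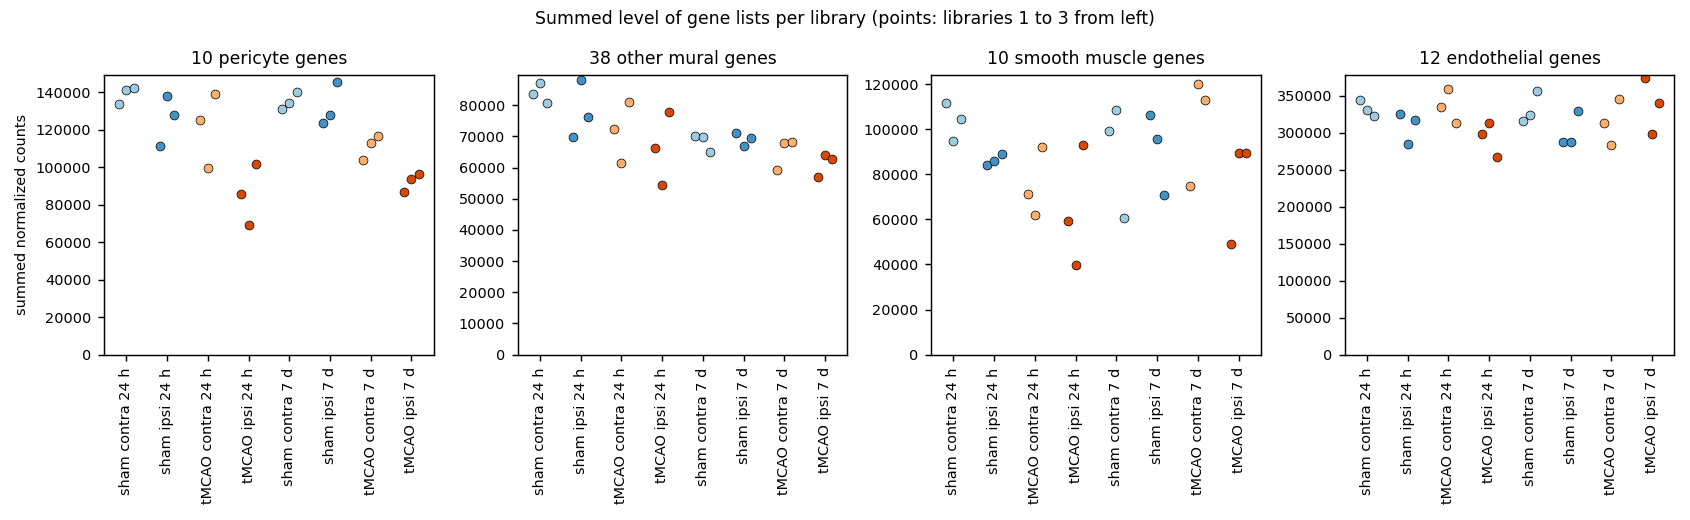
Summed normalized counts (linear axis from 0) of the 10 pericyte genes, 38 other mural genes, 10 smooth muscle genes and 12 endothelial genes in each library of the 8 groups, with libraries 1 to 3 from left to right. The pericyte sum, which Rgs5 and Vtn dominate, is 69382 to 101926 in ipsilateral libraries 24 h after tMCAO against 111221 to 138099 after sham surgery, and the endothelial sums of these groups overlap.

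Among the ligands and receptors of the PDGF family, 1 of 7 was called at 24 h, Pdgfd, another ligand of Pdgfrb, with 1327 ± 225 normalized counts after tMCAO and 2138 ± 138 after sham surgery (SD, n = 3 each). It fell by 0.70 on the log2 scale (SE 0.10, adjusted p = 7.1e-05), and at 7 days it stood at 1819 ± 66 against 1832 ± 146. The receptor Pdgfra, which fibroblasts and oligodendrocyte precursors carry, differed by -0.96 at 24 h (SE 0.36, adjusted p = 0.0505) and -0.94 at 7 days (SE 0.36, adjusted p = 0.0822) and was not called. It was called at 24 h without tMCAO library 3 (-1.30), under median centring (-1.02, adjusted p = 0.0365) and where genes with a mean under 20 were left out (adjusted p = 0.0480), and at 7 days without sham library 3 (-1.26). The ligand Pdgfa measured 1213 ± 115 after tMCAO and 1049 ± 139 after sham surgery at 24 h, and Pdgfc and the receptor-like Pdgfrl measured 179 ± 82 against 255 ± 38 and 109 ± 49 against 133 ± 33. At 7 days 0 of the 7 were called by limma, and the medians of the list were -0.35 at 24 h and -0.01 at 7 days. The difference between the tMCAO effects at 7 days and 24 h was called higher for 1 of the 7 and lower for 0.

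Of 30 other genes of signalling between pericytes and endothelium, 4 were called higher and 1 lower at 24 h, with a median of -0.02 that equalled that of all genes. The endothelin receptor Ednrb rose by 2.5 (SE 0.34, adjusted p = 2.8e-05), the Notch ligand Dll1 by 1.84 (SE 0.26, adjusted p = 3.7e-05) and the growth factor Hbegf by 1.15 (SE 0.36, adjusted p = 0.0217) on the log2 scale. The Notch target Hey1 fell by 0.71 (SE 0.17, adjusted p = 0.0037). Tgfb1, named after its value was seen, rose by 0.66 and was not called without sham library 2 (0.56) or under endothelial centring (0.58). The Hbegf call was lost without sham library 1 (1.05), sham library 2 (1.06), tMCAO library 1 (0.93) or tMCAO library 2 (0.98). At 7 days 1 of the 30 was called, the Notch ligand Dll4, which fell by 0.64 (SE 0.19, adjusted p = 0.0246) and was not called without sham library 3 (-0.50), tMCAO library 2 (-0.65) or tMCAO library 3 (-0.58). The median was then -0.04. The difference between the tMCAO effects at 7 days and 24 h was called lower for 4 of the 30 and higher for 0.

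Outside the 10 genes, the pattern most like their mean over the 24 libraries was that of Igfbp2 (Pearson r = 0.92 with the mean of their standardised log2 values), followed by Lama2, Col1a2 (both 0.91), Ccdc80 and Colec12 (both 0.90). For single genes, the closest were Art3 to Atp13a5 (r = 0.96), Slit3 to Notch3 (0.96), Gprc5c to Cspg4 (0.94), Slc9a9 to Vtn (0.92), Slc19a3 to Rgs5 (0.91), Engase to Anpep (0.90), Heyl to Pdgfrb (0.89), Ggt1 to Kcnj8 (0.86), Slc30a10 to Abcc9 (0.85) and Acox3 to Pdgfb (0.84). Art3, Heyl and Ggt1 were also on the list of mural genes. Of the genes closest to the mean, Col1a2 was on the fibroblast list and none was on the mural list. These values describe the 24 libraries and carry no test.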

How the data were processed

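RNA from 24 libraries of mouse brain microvessels was sequenced, 3 in each of 8 groups given by the labels. Per the submitters' processing notes, the authors used STAR 2.5.2b, featureCounts 1.5.1 and DESeq2 1.6.2 on mm10, while the study's methods name other versions of STAR and DESeq2. The deposited values are a score: the authors divided reads per gene by a DESeq2 size factor and rounded the result, which makes the values relative to the 24 libraries. The annotation release is not given in the sources used here. The estimate of 13691467 to 20025860 reads per library (median 16894997) rests on size factors of 0.805 to 1.24 recovered from the gaps between low values. Precision is set by 3 libraries a group. P-values measure the spread between these pooled libraries.

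Log2 values after adding 1 were fitted with limma 3.58.1 in R 4.3.3 with data.table (1.17.8), all 8 groups together and the prior variance following the mean, for 15982 genes with a mean above 5. The Benjamini-Hochberg method was applied to all of these, and genes were called below an adjusted p of 0.05 where the change exceeded 1.5-fold. Count models were not run, since the values are not whole reads. Fold changes on this scale slightly understate changes of low genes. Python 3.11.15 with pandas 2.3.3, numpy 2.4.6 and matplotlib 3.10.9 served for annotation and plots. The 10 genes and the lists were chosen with earlier results of these data known. Named were all 10 genes, all PDGF family genes, of each list of mural and signalling genes the 3 called genes with the largest increase and decrease, and the genes most alike in pattern. On simulated libraries, the comparison of ipsilateral tMCAO with sham at 24 h recovered 58.6% of the 111 genes given a log2 change of 1 and 87.4% of the 87 given a change of 2, and 10 of 15775 unchanged genes were called. The simulation capped the spread of the most variable genes and drew each gene independently, without deviations shared by genes of a library. Its rates need not hold for the real libraries. Log2 changes smaller than 1 were not simulated, whereas the pericyte genes ranged from -0.88 to 0.10 in this comparison. Same-numbered libraries deviated together, with every correlation over 0.1, between the hemispheres of sham-operated mice only (mean 0.293 at 24 h and 0.411 at 7 days). Between the hemispheres of tMCAO-operated mice the correlations were 0.066, 0.360 and 0.327 at 24 h (mean 0.251), and their mean was 0.144 at 7 days. Alternatives were other centrings (all genes, endothelial genes), pseudocounts and filters, fitting only the compared groups, no trend, a block and leaving out each library.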

Additional observations from a re-analysis of the deposited data

How the results depend on the processing

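Counts of called pericyte genes against sham ranged from 1 to 4 at 24 h and from 1 to 3 at 7 days (3 and 2 with all libraries) when single libraries were left out, from 1 to 3 between the hemispheres at 24 h (3) and from 0 to 2 between 7 days and 24 h (2), and stayed at 0 in the other 9 comparisons. Centring on endothelial genes gave 4 lower genes at 7 days against sham (Rgs5, Abcc9, Vtn and Atp13a5) and 1 between the hemispheres at 7 days (Rgs5), and moved the median of all genes by -0.19 in both. The comparison of 7 days with 24 h gave 0 calls under median centring, 1 without a mean-variance trend and 1 where the replicate number entered as a block (Pdgfrb in both). No other count of pericyte genes changed by over 1.5 times under the block, also where surgery, time and replicate number together formed the block between hemispheres, in which sham-operated mice gave 0 calls as before. Anpep at 7 days turned to 0.035 under median centring (-0.01 otherwise) and Pdgfb to -0.0570 under endothelial centring (0.14). With single libraries left out, Pdgfrb at 24 h ranged from -0.023 to 0.28, Kcnj8 at 24 h from -0.24 to 0.35, Anpep at 7 days from -0.078 to 0.090 and Notch3 at 7 days from -0.43 to 0.092, so that their direction was not fixed. Median centring turned 1603 higher and 1316 lower genes at 24 h against sham into 1330 and 1707, and 1360 and 821 between the hemispheres into 1097 and 1239. From 24 h to 7 days, 594 and 1349 became 939 and 1033, and 389 and 908 became 595 and 685 for the difference of effects. Endothelial centring gave 1212 and 1503 at 24 h and 246 and 1966 at 7 days (523 and 1591 otherwise) against sham, 1545 and 538 between the hemispheres at 24 h and 305 and 1916 at 7 days (485 and 1595 otherwise), 340 and 1825 from 24 h to 7 days and 182 and 1147 for the difference of effects. Where not stated, the cause was not tested.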
